A study of Mus musculus with 12 samples.

Results

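The peaks of DNA methylation (5mC) and hydroxymethylation (5hmC) described here are those whose nearest gene, as annotated by the authors, is a cadherin, protocadherin, cadherin-related gene or calsyntenin, taken as every gene symbol that starts with Cdh and a digit, Pcdh, Cdhr or Clstn. This selection held 216 of 55085 5mC peaks and 268 of 47478 5hmC peaks, nearest to 48 and 42 genes, and 35 of the 55 genes in all had peaks of both marks. The cells came from the E14.5 cortex of mouse embryos heterozygous for both a Btg2 RFP and a Tubb3 GFP reporter, alleles that all groups carried. Proliferative progenitors (PP) were sorted as negative for both reporters, differentiative progenitors (DP) as RFP positive and GFP negative, and newborn neurons as GFP positive, so PP held every other cell of the tissue that lacked both reporters. The series lists 6 immunoprecipitated samples and 6 matched inputs, over 3 cell types and 2 marks. The 3 replicates that the study states were averaged by the authors before deposition, so every value below is a single authors' mean with no spread, the tables hold no counts from which to give its depth, although the study states read totals per library, no difference could be tested, and "higher" and "lower" describe means only. Where 3 values stand together without labels, they are those of PP, DP and neurons in turn.

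Cadherins are calcium-dependent adhesion molecules that bind the same molecule on a neighbouring cell. In the cortical germinal zone, N-cadherin (Cdh2) holds the apical junctions of radial glia, and type II cadherins such as Cdh6, Cdh8 and Cdh10 mark cortical areas and layers. Protocadherins lack the link to catenins that classical cadherins have, and the clustered protocadherins are expressed from alternative first exons in combinations that give single neurons their own surface identity. 5mC is oxidised to 5hmC by Tet enzymes, a step on the way to demethylation, and 5hmC is abundant in neurons.

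In 3 lists of marker genes, expression in the tables went with the sort labels: 7 of 7 listed PP markers were highest in PP, 5 of 5 DP markers in DP, and 5 of 5 neuronal markers in neurons. The other lists were not level between cell types. Endothelial markers were highest in PP in 4 of 5 genes, with summed expression of 510.6 (PP), 359.9 (DP) and 101.7 (neurons). Microglial markers (338.1, 206.7 and 77.5) and meningeal or fibroblast markers (1427.1, 429.6 and 83.5) were highest in PP in 3 of 3 listed genes each, and interneuron markers were highest in neurons in 4 of 4 (971.4, 3615.8 and 10576.0). No marker listed was at 0, and the part of these cells in the results below was not tested.

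None of the promoter windows read for the family overlapped a peak of either mark. The share of all promoter windows that overlap a peak was not taken, so whether this is particular to the family was not tested. RefSeq promoter windows of 300 bases were found for 26 of the 55 genes, with 30 windows in all and none for the clustered protocadherins, and peaks named for any gene were searched. Member windows held a median of 13 CpG, against 7 over all 32851 windows. The closest peaks belonged to Pcdh19, a delta2 protocadherin whose loss causes epilepsy, where a 5mC peak began 59 bp and a 5hmC peak 89 bp past the window, inside the gene. The other window shown is that of Clstn2, a postsynaptic calsyntenin, which had the second largest expression difference of the family and whose nearest 5mC peak stood 1701 bp away. The 250 bases before the start site of each window (RefSeq GRCm38.p6, minus strand, written from 5′ to 3′) are given with CpG in capitals, at chrX:133688994-133689243 for Pcdh19 and chr9:98033168-98033417 for Clstn2. The RefSeq gene bodies reach to chrX:133689044 and chr9:98033373, so part of each stretch lies within the annotated gene.
Pcdh19: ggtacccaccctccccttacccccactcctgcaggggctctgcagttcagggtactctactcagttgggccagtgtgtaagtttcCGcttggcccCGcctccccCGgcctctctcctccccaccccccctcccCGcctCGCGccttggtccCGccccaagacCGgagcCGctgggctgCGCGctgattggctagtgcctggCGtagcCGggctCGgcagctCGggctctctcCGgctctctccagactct
Clstn2: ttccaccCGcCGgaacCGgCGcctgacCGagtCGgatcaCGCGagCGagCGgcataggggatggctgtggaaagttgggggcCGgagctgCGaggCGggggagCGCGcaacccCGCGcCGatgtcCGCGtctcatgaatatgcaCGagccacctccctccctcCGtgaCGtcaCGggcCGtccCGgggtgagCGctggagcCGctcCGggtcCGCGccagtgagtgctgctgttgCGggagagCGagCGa
The Pcdh19 stretch held 16 CpG and the Clstn2 stretch 34, and 2.61% of all windows had at least as many CpG in their 300 bases as that of Clstn2. The hexamer CAGATG, searched on both strands, was in 2 of the 30 windows (6.67%) against 17.2% of all windows, and CAGCTG was in 3 (10%) against 16.3%.

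The peaks of Pcdh19 next to this promoter differed little between cell types. The 5mC peak, 217 bp inside the start site, had a log2 level of 5.95 (PP), 6.09 (DP) and 5.68 (neurons), and the overlapping 5hmC peak had 5.75, 5.75 and 5.41. Relative to all peaks of each mark, neurons were below PP by a log2 change of -0.11 and -0.26. Expression of Pcdh19 was 5381.9 (PP), 5289.5 (DP) and 6726.5 (neurons). In Clstn2, the 5mC peak 2.01 kb upstream of the start site had levels of 5.38, 5.65 and 5.12, and the one 8.28 kb inside the gene 5.05, 5.02 and 5.39, which left neurons above PP by 0.51, short of 1.5-fold. Its expression was 149.9 (PP), 316.9 (DP) and 5583.9 (neurons).

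Family peaks lay far from start sites. The median distance to the transcription start site (TSS) was 40560 bp for 5mC against 20385 bp over all 5mC peaks, and 116560 bp for 5hmC against 27216 bp. More than 100 kb from the TSS were 29.2% of the family's 5mC peaks and 52.2% of its 5hmC peaks, compared with 11.0% and 17.4% of all peaks. Within 1 kb were 6 of the 5mC peaks (2.78%, against 2.99% of all) and 2 of the 5hmC peaks (0.746%, against 3.21%). Cdh5, the VE-cadherin of blood vessels, had 23 5mC and 24 5hmC peaks, of which 1 and 2 were inside the gene and the farthest lay 595 kb upstream. Among 5hmC peaks, Pcdh17 (28), Cdh5 (24), Cdh6 (23), Cdh10 (21) and Cdh9 (17) had the most, and among 5mC peaks Cdh5 (23), Cdh6 (17), Pcdh17 (15), Cdh23 (14) and Pcdha4 (11).

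The assignment to the nearest TSS is a choice of the annotation. By distance to RefSeq gene bodies, 460 of the 484 family peaks were nearest to a gene of the family, and the other 24 to neighbours such as Slc29a3 (4 5mC and 3 5hmC peaks given to Cdh23), Ankrd11 (4 given to Cdh15) and Zwint (3 given to Pcdh15). The 2 5mC and 4 5hmC peaks nearest to Cdh12 carried the name of Cdh18. The converse was more common. Inside the RefSeq bodies of the 36 family genes outside the clusters lay 173 5mC and 159 5hmC peaks, of which 90 and 64 were named for a gene outside the family. Cdh13 alone, 1185 kb long, held 30 5mC peaks, of which 6 bore its name, and Cdh23 held 35, of which 10 did. Of 100 protein-coding RefSeq genes that fit the naming rule, 55 had a peak and 44 had none under their own name. Pcdhb16 matched only by an older symbol that is also the present name of another of the 55, so a peak of its own was not shown. Peaks named for Cdh18 and Pcdha4 were, however, nearest to Cdh12 and to Pcdha1, Pcdha2 or Pcdha3. Of the 44, 37 were clustered protocadherins, and the remaining 7 were Cdh11, Cdh12, Cdh16, Cdh19, Cdh26, Cdhr4 and Cdhr5.

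Next, the change of each peak between cell types was taken as the difference of the authors' log2 levels minus the median difference of all peaks of that mark, which was -0.18 for 5mC from DP to neurons, -0.17 from PP to neurons and at most 0.081 in size otherwise. A peak was counted as higher or lower when the change reached 1.5-fold. In total, the family's 5mC counts were close to the background, but not by position. From PP to DP, 9 of 216 5mC peaks were higher and 13 lower, that is 4.17% and 6.02% against 4.60% and 5.44% of all peaks, and the median change was -0.016. From DP to neurons, 15 were higher (6.94%, against 5.12%) and 22 lower (10.2%, against 9.36%), with a median of 0.012. Inside genes, 17 of 107 were lower (15.9%, against 9.58% of all peaks inside genes) and 3 higher (2.80%, against 4.84%) at this step. Outside genes the order was turned for the centred changes, with 5 of 109 lower (4.59%, against 9.22%) and 12 higher (11.0%, against 5.31%). Without centring, 5 of the 216 were higher (2.31%, against 2.26% of all peaks) and 33 lower (15.3%, against 15.5%), with a median of -0.16. With so few higher in the whole family, higher peaks did not outnumber lower ones outside genes, and the turned order was not kept. Between PP and neurons, 13 were higher (background 5.00%) and 22 lower (background 10.2%), or 2 and 34 without centring (0.926% and 15.7%, against 2.12% and 16.3%).

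In 5hmC, fewer family peaks than all peaks were higher at the later stage. From PP to DP, 23 of 268 were higher (8.58%, against 11.2%) and 16 lower (5.97%, against 4.68%). From DP to neurons, 27 were higher (10.1%, against 16.5%) and 22 lower (8.21%, against 7.07%). Between PP and neurons, 38 were higher (14.2%, against 22.1%) and 25 lower (9.33%, against 7.71%), and the median change was -0.11. Without centring these came to 31 higher (11.6%, against 20.2%) and 34 lower (12.7%, against 10.8%). Split by position, the shares of peaks named for the family differed outside genes. Inside genes, 23 of 91 family peaks were higher in neurons than in PP (25.3%, against 26.7% of all peaks inside genes), whereas outside genes 15 of 177 were (8.47%, against 19.5%). Among peaks over 100 kb from the TSS, the shares were 9.29% and 17.6%. Peaks named for any gene were also counted inside the RefSeq bodies of the 36 family genes outside the clusters. Of these 159 5hmC peaks, 31 were higher in neurons than in PP (19.5%) and 14 lower (8.81%). The 26.7% above is for peaks inside the gene they are named for. The share inside the RefSeq bodies of all genes was not taken, so these shares are not alike and were not compared. Many of these calls came from peaks of low level. A filter kept only peaks whose higher level of the cell types compared reached the median of their mark. It left 2 of the 22 lower 5mC peaks from DP to neurons, and 9 of the 23 higher 5hmC peaks from PP to DP. The same filtered counts were not taken over all peaks, so whether this is particular to the family was not tested.

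**Figure D1:**
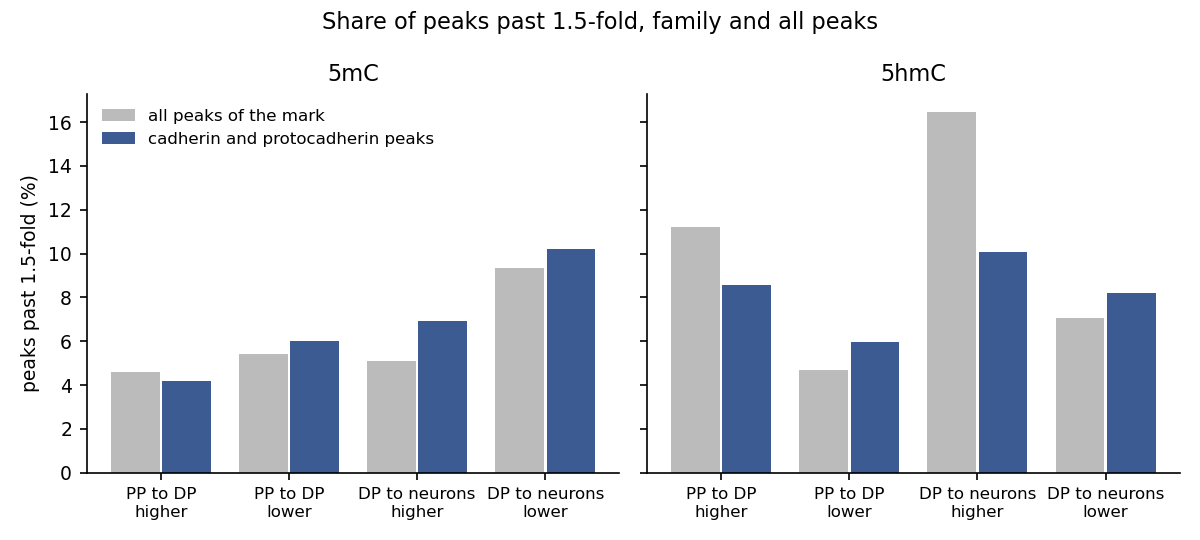
Percentage of peaks at least 1.5-fold higher or lower (y axis) in each transition, for all peaks of a mark (grey) and for the cadherin and protocadherin peaks (blue). Of the transitions drawn, PP to DP and DP to neurons, the largest gap is in 5hmC higher in neurons than in DP, with 10.1% of family peaks and 16.5% of all peaks.

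Type I cadherins, the classical subfamily that includes E-cadherin (Cdh1), N-cadherin and R-cadherin (Cdh4), are set first. Over all 5hmC peaks, 22.1% were higher and 7.71% lower in neurons than in PP, and over all 5mC peaks 10.2% were lower. Of the 12 5hmC peaks of type I cadherins, 8 were higher in neurons than in PP and 1, in Cdh3, was lower, with a median change of 0.85, and 6 of the 8 were in Cdh4. Type II cadherins had 14 of 119 higher and 12 lower. Of the 15 peaks of the other cadherins, Cdh17 and Cdh23, 6 were higher (40%) and none lower, so a share above that of all peaks was not particular to type I. The delta1 protocadherins had 2 of 35 higher and 5 lower, the delta2 protocadherins 5 of 36 higher and 3 lower, and the calsyntenins 2 of 8 higher and none lower. In 5mC, 4 of 6 peaks of Cdh13 were lower in neurons than in PP, with a median change of -0.87, against 3 of 21 in type I and 6 of 75 in type II cadherins. All 12 5hmC peaks of the clustered protocadherins had a change below 0 from DP to neurons, where centring puts the median of all peaks at 0. They reached from -0.76 to -0.00051, with a median of -0.31. Of them, 3 reached 1.5-fold (25%, against 7.07% of all 5hmC peaks). These genes are close copies that may share reads, so the 12 are not independent results.

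**Figure D2:**
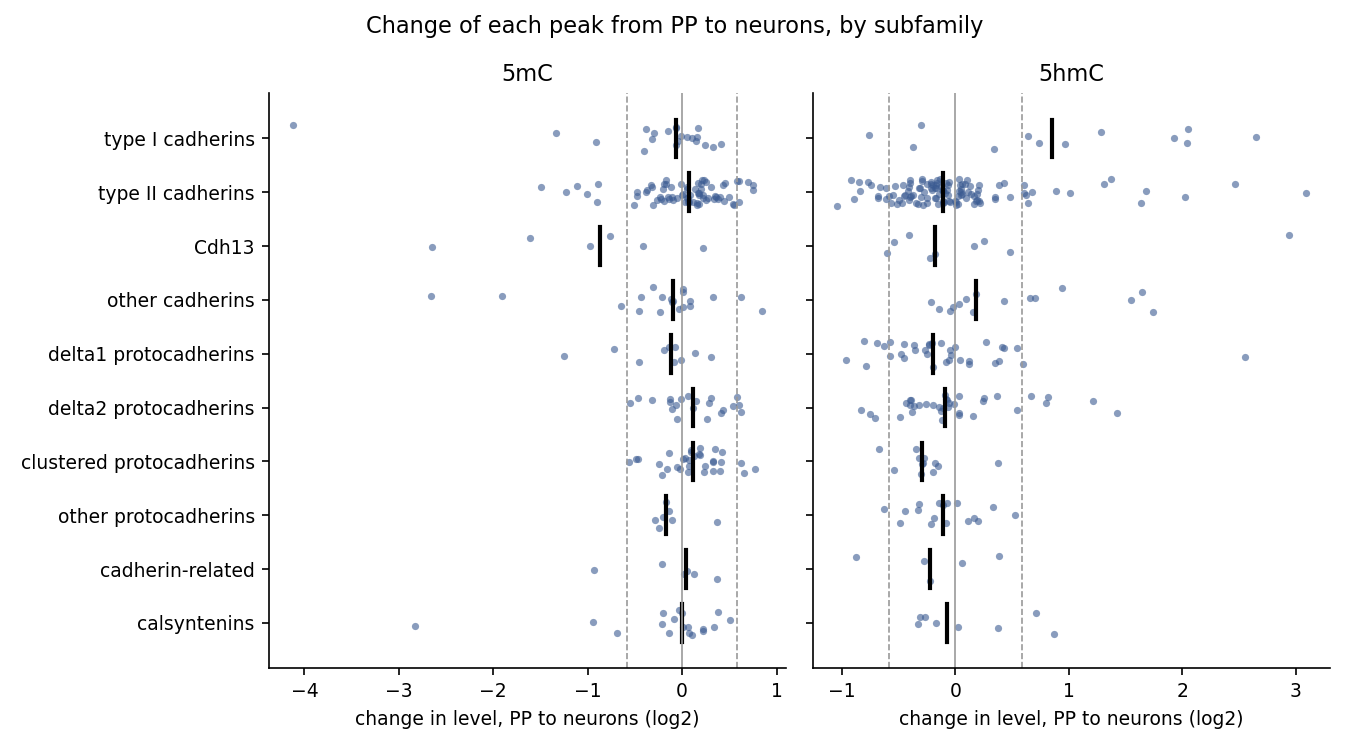
Log2 change in 5mC and 5hmC from PP to neurons (x axis) of each peak (points), by subfamily (y axis), with the subfamily median as a black bar and 1.5-fold as dashed lines. Type I cadherins have a 5hmC median of 0.85, and Cdh13 has a 5mC median of -0.87, while the medians of the other groups lie between -0.29 and 0.18.

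Cdh4 encodes R-cadherin, an adhesion molecule of the forebrain. At a position 76.9 kb into the gene (5mC peak chr2:179519288-179519450), 5mC had a log2 level of 4.76 (PP), 3.91 (DP) and 0.47 (neurons), and the overlapping 5hmC peak had 2.98, 4.66 and 5.55. The marks thus went in opposite directions, with changes from PP to neurons of -4.12 and 2.65, the lowest 5mC change in the family. Its 5mC level in PP was below the median of all 5mC peaks (5.06). Its level in neurons was near the lowest of any 5mC peak in any cell type (0.11), so the size of the change rests on a value near the floor. At 27.0 kb, 5mC was 4.52, 3.90 and 3.02, and 5hmC was 2.91, 3.71 and 4.88. At 35.7 kb, 5mC was 4.90, 4.95 and 3.82, with the lower level in neurons alone, whereas 5hmC was 3.82, 4.60 and 5.66. In 5hmC, DP lay between PP and neurons at each of these 3 positions. A 5hmC peak 2.79 kb from the TSS without a paired 5mC peak had levels of 2.89, 3.87 and 4.85. At 46.9 kb the order differed, with 4.15 (PP), 3.18 (DP) and 5.03 (neurons). The peaks at 49.0 and 63.9 kb were slightly below PP in neurons, with changes of -0.30 and -0.37.

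Over the whole RefSeq body of Cdh4 (457 kb), including peaks named for other genes, 8 of 15 5hmC peaks were higher and 1 lower in neurons than in PP, and 4 of 19 5mC peaks were lower and none higher. Expression of Cdh4 was 6589.5 (PP), 4629.3 (DP) and 11124.2 (neurons), lowest in DP. Without Cdh4, 32 of 260 family 5hmC peaks were higher in neurons than in PP.

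Cdh13 encodes T-cadherin, which is anchored to the membrane by lipid and lacks the cytoplasmic tail of classical cadherins. Expression was 57.4 (PP), 164.3 (DP) and 11417.7 (neurons), a 199-fold difference between neurons and PP and the largest in the family. The 5mC peak 55.6 kb past the TSS (chr8:118339242-118339364) had a level of 4.67 (PP), 4.45 (DP) and 1.85 (neurons), a change of -2.64 from PP to neurons, of which -2.42 was from DP to neurons. Lower by at least 1.5-fold were also the 5mC peaks at -16.4 kb (4.52, 4.26 and 2.74), 22.0 kb (4.22, 4.29 and 3.07) and 27.1 kb (3.89, 3.41 and 2.95). A strong 5mC peak at -74.3 kb differed little, with 8.0, 8.20 and 8.06. One of 9 5hmC peaks was higher in neurons, at 32.9 kb, with 2.24 (PP), 2.80 (DP) and 5.10 (neurons). Over the RefSeq body, 8 of 30 5mC peaks were lower in neurons than in PP and none higher, and 1 of 20 5hmC peaks was higher and 1 lower. The TSS used in the tables lies within the RefSeq gene, so the 6 5mC and 9 5hmC peaks that bore its name, upstream ones included, were all inside it.

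**Figure D3:**
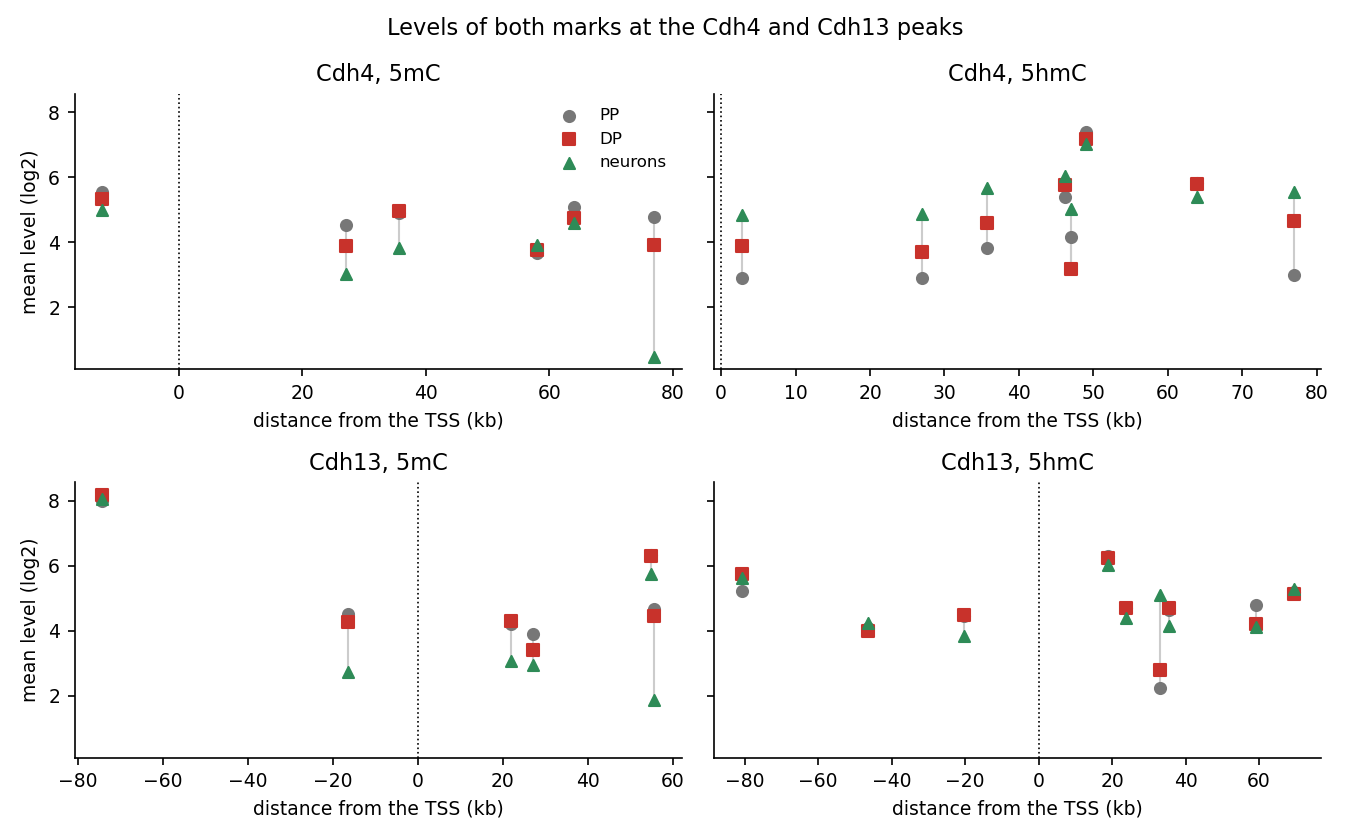
Authors' mean log2 level (y axis) of each 5mC and 5hmC peak named for Cdh4 and Cdh13 by distance from the TSS in kb (x axis), in PP (grey circles), DP (red squares) and neurons (green triangles), with a line joining the values of a peak. Neurons are lowest at the 5mC peaks 76.9 kb into Cdh4 (0.47) and 55.6 kb into Cdh13 (1.85), and highest in 5hmC at 6 of 8 Cdh4 peaks.

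Positions where the marks overlapped allowed both to be read on the same DNA. In 28 pairs, a 5mC and a 5hmC peak of the family overlapped by at least 1 bp, and in 7 of these (25%, against 18.8% of 6727 pairs over all genes) 5mC was lower and 5hmC higher in neurons than in PP, each by at least 1.5-fold. None of the 28 had the converse, which 15 of all pairs had (0.223%). Taken singly, 5mC was lower in 28.6% of the family's pairs (against 24.3%) and 5hmC higher in 35.7% (against 42.9%), with a median 5hmC change of -0.048 against 0.41. Besides the 3 pairs in Cdh4, these were at Cdh5, Pcdh9, Cdh23 and Cdh6, so that without Cdh4 4 of 24 pairs were left, 16.7% and below the share over all genes. The pair 74.4 kb upstream of Cdh5 (chr8:104027097-104027262) had 5mC levels of 5.29 (PP), 5.09 (DP) and 4.00 (neurons) and 5hmC levels of 2.46, 4.30 and 5.47. Its 5hmC change of 3.09 was the highest in the family.

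Expression of Cdh5 had the opposite order, with 111.7 (PP), 34.1 (DP) and 9.9 (neurons), alongside the endothelial marker sum given above. In Pcdh9, a delta1 protocadherin, the pair 69.1 kb into the gene had 5mC levels of 4.38, 3.89 and 2.97, and its 5hmC was 2.92 (PP), 2.93 (DP) and 5.39 (neurons). PP and DP thus had nearly the same 5hmC mean. Expression of Pcdh9 was 836.8, 533.3 and 4208.8. In Cdh23, an atypical cadherin of the tip links in hair cells, the pair 73.6 kb into the gene had 5mC levels of 4.86, 4.32 and 2.79 and 5hmC levels of 4.83, 5.31 and 5.68. Upstream of Cdh6 by 234 kb, 5mC was 5.58, 5.67 and 4.52 and 5hmC was 3.53, 4.45 and 5.13.

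**Figure D4:**
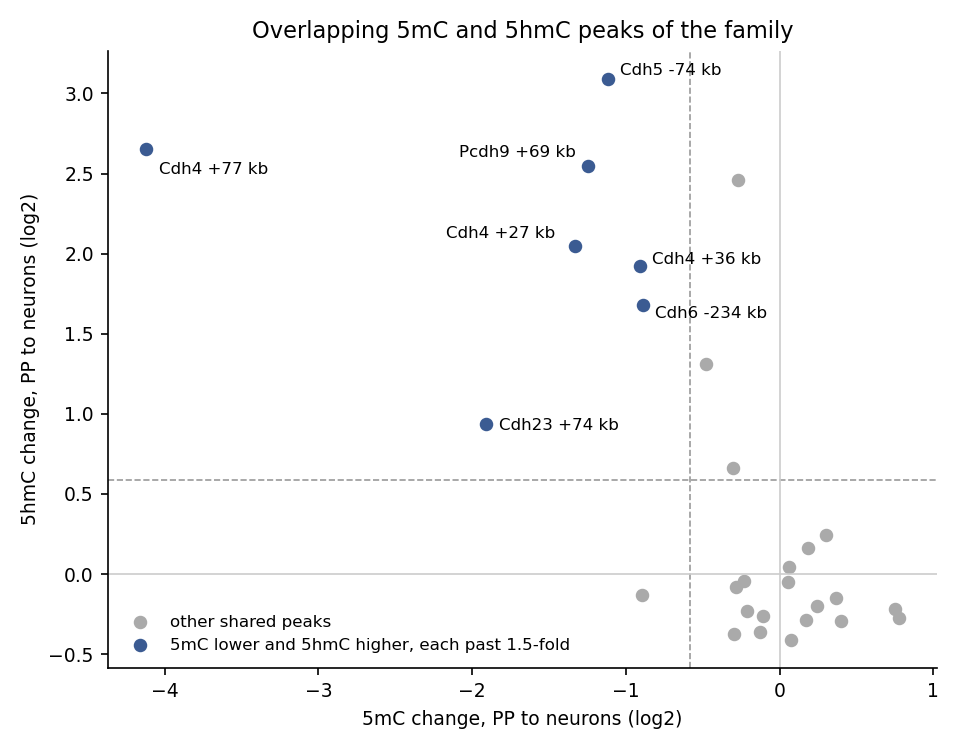
Change from PP to neurons in 5mC (x axis) and 5hmC (y axis), both log2, at the 28 overlapping peak pairs of the family, with 1.5-fold as dashed lines. The 7 named pairs (blue) are past both lines, and the pair 77 kb into Cdh4 stands farthest to the left at -4.12.

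The part of the change already present in DP was taken for each mark at the peaks past 1.5-fold between PP and neurons. These peaks were selected on that contrast, which is also the denominator of the ratio below. The peaks of 5hmC and 5mC are separate sets, so the order of the marks on the same DNA was not read from them. At the 38 family peaks with higher 5hmC in neurons, the median level was 3.75 (PP), 4.44 (DP) and 5.04 (neurons), and the change from PP to DP, divided by that from PP to neurons at each peak, had a median of 51.0%, compared with 39.5% over all such peaks. At the 22 peaks with lower 5mC, the median level was 4.56 (PP), 4.30 (DP) and 3.08 (neurons), and the median of that ratio was 18.9%, compared with 25.4%. Without replicate values, whether these shares differ was not testable.

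The peaks named next reached the median of all peaks of the mark in the higher of the cell types compared. The other cell type could be below it, so a peak could pass only through the cell type where it was high. Under this filter, the largest 5hmC changes from PP to DP were at Cdh5, 434 kb upstream (3.66 in PP and 4.80 in DP), Cdhr1, a photoreceptor cadherin, 3.69 kb into the gene (3.83 and 4.80), and Cdh23, 62.0 kb into the gene (3.97 and 4.87). The lowest changes were 102 kb upstream of Cdh9 (4.76 and 4.01), 263 kb upstream of Pcdh20 (5.17 and 4.44) and 10.2 kb into Cdh6 (5.33 and 4.65). From DP to neurons, by the same filter, 5hmC was highest in change at the Pcdh9, Cdh13 and Cdh4 peaks given above (2.48, 2.33 and 1.88). It was lowest in change 691 kb upstream of Cdh18 (5.66 in DP and 4.64 in neurons), 116 kb into Cdh23 (5.38 and 4.46) and 453 kb upstream of Cdh6 (5.03 and 4.17). Cdh23 thus held peaks of both directions, as did Cdh6 with the higher 5hmC peak 234 kb upstream given above.

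In 5mC, under the same filter on the higher level, the peaks with the largest positive change from PP to DP were in Pcdhb12 (4.22 in PP and 5.09 in DP) and at Pcdh17, 384 kb upstream (4.41 and 5.14) and 129 kb past the TSS (4.50 and 5.09). The last of these was short of 1.5-fold without centring, with 0.58. Without the filter, the changes reached from -1.03 at Cdh6 to 1.15 at Cdh9. Lowest in change under the filter were the peaks 3.27 kb upstream of Cdh2 (5.69 and 5.02), 52.2 kb into Cdh6 (5.10 and 4.43) and 160 kb upstream of Pcdh17 (5.30 and 4.67). From DP to neurons, 5mC was higher 32.6 kb upstream of Cdh5 (4.21 and 5.02), at the same Cdh6 peak (4.43 and 5.09) and in Pcdhb13 (4.36 and 4.90). Each of these 3 peaks was lowest in DP, and that in Pcdhb13 was short of 1.5-fold without centring, with 0.54. Lower in neurons were the Cdh6 and Cdh5 peaks of the pairs above, and another Cdh6 peak 54.9 kb upstream (5.29 and 4.56) reached 1.5-fold only without centring, with -0.74 against -0.56.

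N-cadherin had few peaks. Its 5mC peak 3.27 kb upstream had levels of 5.69 (PP), 5.02 (DP) and 5.21 (neurons), and its 5hmC peak 27.3 kb into the gene had 3.46, 4.43 and 4.67. Expression of Cdh2 was 19904.8, 14889.7 and 19213.9, within 1.5-fold in every comparison. Of the 3 5hmC peaks of Cdh8, 1, 47.7 kb into the gene, was higher in neurons than in PP (4.67, 5.00 and 5.21), though short of 1.5-fold without centring with 0.54, and its expression was 428.7, 2052.4 and 2460.8. In Cdh10, 5mC 166 kb into the gene was 4.95, 4.34 and 3.29, and 5hmC 192 kb into it was 3.69, 4.41 and 5.24. For Cdh6, the most changed 5hmC peak, 57.7 kb upstream, had 2.67, 3.93 and 5.05, while its expression was 2051.4, 840.2 and 627.8. In Pcdh10, neither mark reached 1.5-fold between PP and neurons, with changes of 0.58 in 5mC and -0.43 in 5hmC at the most changed peaks.

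The beta protocadherins are single-exon genes in a row, and most of their peaks lay 1 to 2 kb past the TSS, with 3 of 18 5mC and 5 of 12 5hmC peaks elsewhere. All 7 5hmC peaks between 1 and 2 kb from a beta TSS lay 1458 to 1538 bp past it, each in another gene, and 15 5mC peaks in 14 genes lay 1486 to 1970 bp past it. From DP to neurons, all 7 5hmC peaks had a change below 0, from -0.69 in Pcdhb21 (4.58 in DP and 3.87 in neurons) to -0.24 in Pcdhb18 (5.85 and 5.59). Only the first reached 1.5-fold. Of the 15 5mC peaks, 10 had a change above 0 and 5 below, but without centring 7 were above and 8 below, while the 7 5hmC peaks were all below 0 either way. In Pcdhb3, 5mC was 3.56 (PP), 4.13 (DP) and 4.17 (neurons), and 5hmC was 5.11, 5.08 and 4.76. In Pcdhb17, 5mC was 7.33, 7.34 and 7.34, and 5hmC was 5.89, 5.88 and 5.53. These genes are close copies of one another, so reads and expression may have been split between them and single members are uncertain. The rows named Pcdha4 and Pcdhga9 stand for loci whose RefSeq neighbours include several overlapping genes of those clusters, and 6 of the 11 5mC peaks of Pcdha4 were nearest to Pcdha1, Pcdha2 or Pcdha3.

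Expression of the family's genes, given once per cell type (the study plots FPKM, the tables name no unit, and the values were not taken as FPKM), was compared within each gene as log2 of the value plus 1. From PP to DP, 26 of 55 genes were higher (47.3%, against 13.7% of 16293 genes) and 10 lower (18.2%, against 17.0%). From DP to neurons, 37 were higher (67.3%, against 26.2%) and 6 lower (10.9%, against 26.1%). Between PP and neurons, 37 were higher (background 29.8%) and 8 lower (background 31.2%), with a median change of 2.33. The clustered protocadherins made up much of this. From PP to DP they gave 17 of the 26 higher genes and none of the 10 lower. All 19 were higher in neurons than in PP, and without replicate values, and with copies that may share reads, they are not 19 independent results. Among the 17 beta genes, the change from PP to DP was at least 0.90 and that from DP to neurons at least 0.77. In such sorted bulk samples, fewer cells of a type and less RNA per cell cannot be told apart.

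Largest in difference between neurons and PP were Cdh13 and Clstn2, followed by Cdh9 (0.3 (PP), 2.2 (DP) and 31.6 (neurons)), Pcdhb12 (3.2, 23.4 and 97.3) and Cdh23 (12.3, 35.1 and 239.8). The value of Cdh9 in PP is too low for its fold to be read. Pcdh1 differed by 3.88 and had its lowest value in DP, with 223.2, 99.1 and 3310.7. Lower in neurons were Cdh20, a type II cadherin (672.3, 262.4 and 48.6), Cdh5, Pcdh12, an endothelial protocadherin (35.1, 6.2 and 4.9), Cdh17, the liver-intestine cadherin (13.2, 7.2 and 2.0), and Cdh6. Both vascular genes in this group, Cdh5 and Pcdh12, were highest in PP, as were 4 of the 5 endothelial markers, a list that holds Cdh5. The type I cadherins showed no common direction, with Cdh15 and Cdh4 higher in neurons, Cdh1 and Cdh3 lower at values of at most 14.2, and Cdh2 level.

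**Figure D5:**
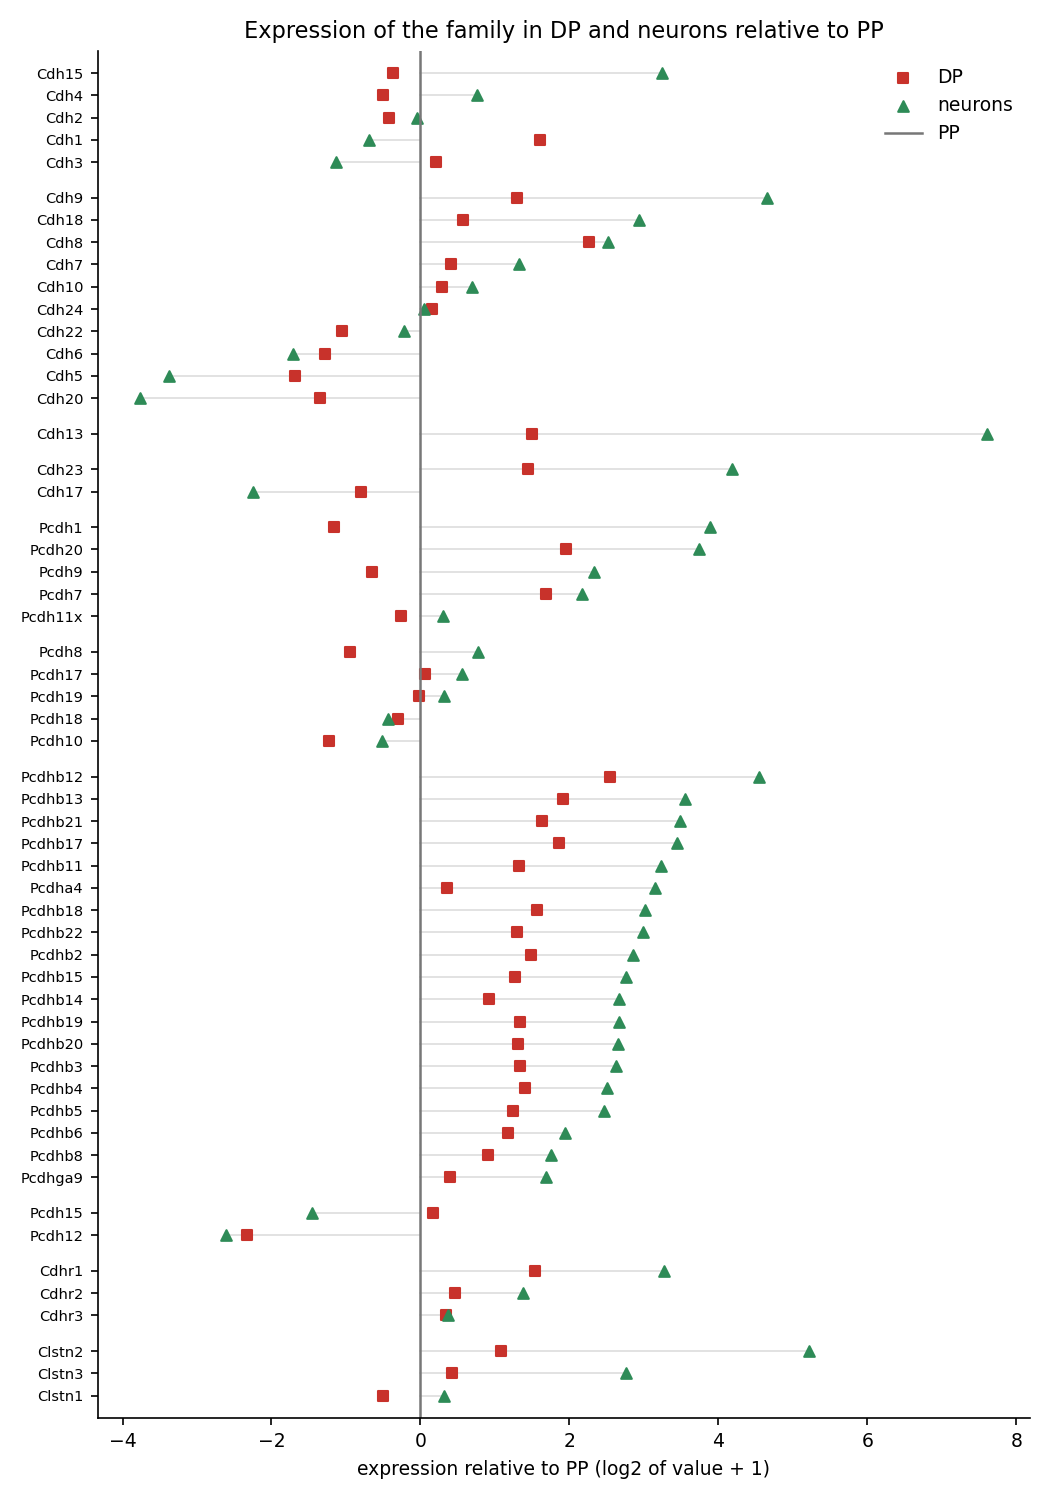
Expression of the 55 family genes in DP (red squares) and neurons (green triangles) relative to PP (grey line), as log2 of the value plus 1 (x axis), ordered by subfamily and then by the difference between neurons and PP. All 19 clustered protocadherins lie right of 0 in both cell types, whereas Cdh20, Cdh5, Pcdh12 and Cdh17 lie farthest to the left in neurons.

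The marks were also set beside expression. Of 118 5mC peaks of family genes whose expression was at least 1.5-fold higher in neurons than in PP, 17 were lower in neurons (14.4%, against 12.9% of all peaks of such genes), and of 59 peaks of family genes with lower expression, 3 were (5.08%, against 8.66%). In 5hmC, 20 of 151 peaks of the first group were higher in neurons (13.2%, against 24.8%), and 10 of 69 of the second, where the share over all peaks of such genes was 20.0%. Higher 5hmC was thus not more frequent at family genes with higher expression in these counts. Most peaks of the second group were those of Cdh5 (24) and Cdh6 (23), with 4 higher peaks each, so its share rests largely on them.

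Partners of the family were taken as a list of 32 gene symbols, among them catenins, nectins, the protease Adam10, the WAVE complex, kinases and proteins that bind calsyntenins, of which 27 were in the tables. From PP to DP, 4 were higher (14.8%, against 13.7%) and 3 lower (11.1%, against 17.0%), and from DP to neurons 14 were higher (51.9%, against 26.2% of all genes) and 4 lower (14.8%, against 26.1%). The alpha-catenins, which link cadherins to actin, had opposite orders. Ctnna1 was 13512.6 (PP), 11350.5 (DP) and 1586.7 (neurons), and the neuronal Ctnna2 was 925.7, 2094.7 and 17715.9. Plakoglobin (Jup) was 151.1, 440.2 and 2150.1, whereas the nectin gene Pvrl3 was 8522.5, 4324.6 and 703.8. Of 123 5mC peaks nearest to these partner genes, 22 were lower (17.9%, against 10.2% of all peaks) and 8 higher (6.50%, against 5.00%) in neurons than in PP. Of 154 5hmC peaks, 45 were higher (29.2%, against 22.1%) and 11 lower (7.14%, against 7.71%). Both the lower 5mC peaks and the higher 5hmC peaks were most numerous at another nectin gene, Pvrl1, and the shares without it were not taken.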

How the data were processed

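The 5mC and 5hmC peaks of PP, DP and neurons sorted from the E14.5 cortex were analysed from 2 tables. The authors mixed barcoded DNA of the cell types before each immunoprecipitation. Per the submitters' processing notes and the study's methods, the authors demultiplexed with bcl2fastq 1.8.4, aligned reads to mm10 with BWA 0.7.8-r455, called peaks with SICER 1.1, kept peaks shared by the replicates of a cell type, left out repeats, normalized with DiffBind (TMM) and annotated with HOMER 4.7. Peaks in gene copies depend on how reads of near-identical sequence were placed, and mixing before the pull-down makes the levels relative between cell types.

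The deposited level columns are log2 of the authors' mean normalized read level per cell type, and the deposited expression columns are a score per cell type from an earlier RNA-seq study of the authors whose unit the tables do not name. The deposited distance column is a score in bp. Columns with the authors' own folds, p-values and adjusted p-values were not used. Counts, replicate values and input levels were not analysed here, so errors and tests are absent, and the depth behind each value, and with it the precision, is unknown from the tables.

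Every row was kept. Changes were differences of log2 levels minus the median over all peaks of the mark, counted at 1.5-fold, expression changes used a pseudocount of 1, and pairs overlapped by at least 1 bp. Gene bodies and promoters came from RefSeq (GRCm38.p6), and exons or introns were not assigned. The motif windows were promoters of 300 bases, in place of the peak windows planned, since peak sequences were not used here. Named peaks were the 3 largest changes per mark, transition and direction among peaks whose higher level was at or above the median of all peaks, the 5 genes with most peaks, opposite pairs, the 5 largest expression differences per direction, and the most changed peak of 11 genes, of which 10 had one. Pcdh1, the promoters, other peaks of Cdh4, Cdh13, Clstn2 and Pcdh19, and the named partner genes were chosen after their values were seen. The members, lists and subfamilies were chosen with earlier results of these data known. The steps were tested on simulated data. Tools were pandas 2.3.3, numpy 2.4.6 and matplotlib 3.10.9 under python 3.11.15. Alternatives were no centring, a 2-fold minimum, level and distance filters, repeated peaks counted once, gene-wise medians, a 50% overlap, a pseudocount of 10 and an expression minimum of 100, and, chosen after seeing the data, leaving out Cdh4 and requiring a family gene as nearest RefSeq gene.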

Additional observations from a re-analysis of the deposited data

How the results depend on the processing

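No paired analysis was possible because the tables hold 1 mean per cell type, and for the same reason no replicate could be left out. Of 118 recomputed values, 93 stayed within 1.5 times the count or 0.1 of the median, and 25 did not; the cause of these was not tested beyond the smaller number of peaks or genes that a filter leaves. At 2-fold, 5mC counts for the step to DP came to 1 higher and 1 lower, those for the step to neurons to 2 and 10, 5hmC counts came to 6 and 0 and to 12 and 4, and opposite pairs to 4, as they did without Cdh4, an alternative chosen after seeing the data. With only peaks whose higher level was at or above the median, 5mC counts were 3 higher and 3 lower for the step to DP and 7 and 2 for the step to neurons, and 5hmC counts were 9 and 8 for the former and 7 lower for the latter. Inside genes or within 100 kb, 5mC had 4 higher at the former step and 8 at the latter, and 5hmC had 9 and 11 lower. Counts at 2-fold and with the level and distance filters were not taken over all peaks, so no background share stands beside them. Without centring, 5 5mC peaks were higher from DP to neurons and the median change was -0.16. Restricting expression to genes reaching 100 left 2 genes lower from DP to neurons and 3 from PP to neurons. Of 43 named peak changes, 39 kept their side of 1.5-fold without centring and 4 moved across it, without a reversal.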
